A study of Mus musculus with 36 samples.

Results

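The 200 transcripts described here had the highest translational efficiency in unstressed mouse embryonic fibroblasts, which are connective tissue cells grown from mouse embryos. Translational efficiency is the level of ribosome footprints on a transcript divided by the level of its RNA. A transcript was ranked if its footprints averaged at least 20 RPKM and its RNA at least 5 FPKM in the unstressed libraries. RPKM is footprint reads per unit of coding length, scaled to the library's total, and FPKM is the same for RNA fragments over the whole transcript. Both minimums were met by 4855 of the 11028 transcripts listed in both assays. The 200 with the highest footprint level were left out, and the members are the 200 of the remaining 4655 transcripts (4.30%) with the highest ratio. These remaining transcripts are called eligible below, and the 4455 of them that were not chosen are the comparison group.

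Ribosomes protect a short stretch of mRNA from nuclease, and sequencing those stretches (Ribo-seq) counts ribosomes along each coding sequence. The number of ribosomes on an mRNA depends on how often translation starts and on how long each ribosome stays. Hyperosmotic medium draws water out of cells, slows translation and leads to the recovery of cell volume through uptake of osmolytes. An mRNA of high translational efficiency has many footprints per unit of coding length for its RNA level. Efficiency is a ratio, and it can be high through many footprints or through little RNA.

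All cells were of the strain C57BL/6J, were grown in high-glucose medium with serum, and carried no named genetic change. They were left unstressed (Normal Condition) or put under osmotic stress with sorbitol. Mild stress below means 500 mOSM and intermediate stress 600 mOSM, each held for 2 h. Severe stress means 700 mOSM, called brief when it lasted 15 min and prolonged when it lasted 2 h. Cells from either severe exposure were also left to recover, for 15 min or for 2 h. Release from brief severe stress stands here for the 15 min recovery of the brief exposure, and release from prolonged severe stress for the 2 h recovery of the prolonged one. Each of the 9 conditions had 2 footprint and 2 cytoplasmic RNA libraries, and the labels do not say whether the 2 came from separate cultures. The deposited lists name transcripts by Ensembl identifier and do not pair them with genes, so the members could not be given gene names or roles, and the cell type was not checked against fibroblast markers. Members are identified below by their rank in efficiency and their coding length, and the identifiers of 4 are printed.

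Read totals over the listed transcripts ran from 732779 to 9102153 in the footprint libraries, and the 4 taken during severe stress were the shallowest, with 732779 to 1068357. In the RNA libraries they ran from 6851958 to 55262396. Between the 2 footprint libraries of each condition, read counts departed from each other only slightly beyond counting noise, with a chi-square statistic per degree of freedom of 1.003 to 1.081 where noise alone gives 1. They were therefore counted as 1 sample, and a footprint comparison has no replicate check and no p-value. For the RNA pairs this statistic was 3.44 to 47.1, and they were kept as n = 2. It grows with read depth where pairs differ beyond counting noise, so it does not compare the assays. The log2 difference between the 2 libraries had an SD over the members of 0.089 for footprints and 0.235 for RNA in unstressed cells. At 700 mOSM for 15 min these SDs were 0.892 and 0.101. For RNA, 2 sets of libraries, labelled 700 mOSM 15min Recovery 2h and 700 mOSM 2h Recovery 15min, bear file names that give each the other's times. Their groups follow the labels, and neither set is one of the groups compared in a test below, although both add to the estimate of the spread in the RNA fit.

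In unstressed cells the members combined many footprints with little RNA. These values chose the members and are a description. Their mean footprint level ran from 39.3 to 868 RPKM with a median of 205, against a median of 57.6 RPKM in the comparison group. Their mean RNA level ran from 5.07 to 99.6 FPKM with a median of 18.4, against 31.0 FPKM in the comparison group. The ratio of footprint to RNA level ran from 7.01 to 55.0 with a median of 9.32, against a median of 2.05.

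The ratio fell off steeply over the first members. The member ranked 1 has 51 codons, and it had 317 and 312 RPKM of footprints and 6.24 and 5.21 FPKM of RNA in the 2 unstressed libraries of each assay, a ratio of 55.0. The member ranked 2 has 77 codons, 653 and 642 RPKM of footprints, 14.4 and 11.7 FPKM of RNA and a ratio of 49.7. The member ranked 3 has 356 codons, 428 and 437 RPKM of footprints, 10.1 and 9.32 FPKM of RNA and a ratio of 44.6. At rank 8 the ratio was 27.2, and at rank 20 it was 16.0. There was no gap at the threshold: the last 5 members had ratios of 7.12 to 7.01, and the next 5 transcripts had 7.003 to 6.94.

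**Figure D1:**
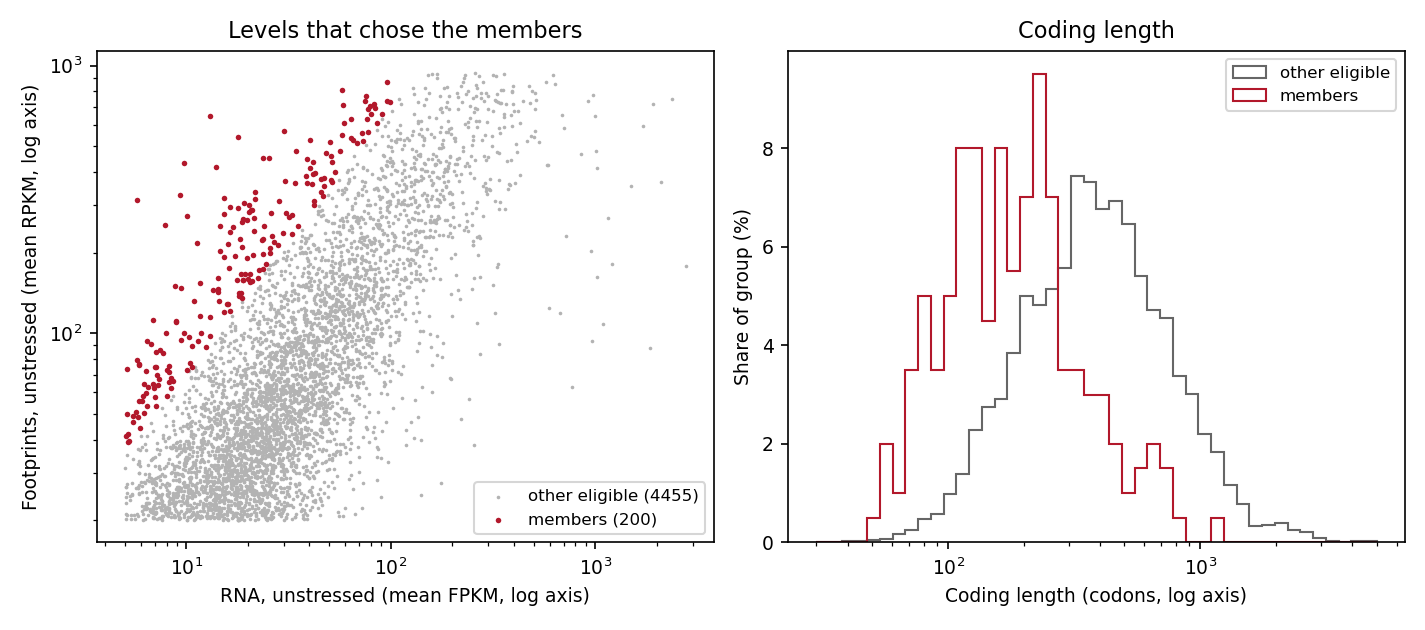
The left panel plots the mean footprint level (RPKM) against the mean RNA level (FPKM) in unstressed cells on log axes for the 200 members (red) and the 4455 other eligible transcripts (grey). The right panel plots the share of each group by coding length in codons on a log axis: the members lie along the upper left edge of the left panel, and their coding lengths have a median of 174 codons against 381.

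The spread between libraries of unstressed cells came mainly from RNA. The unstressed RNA pair had the highest chi-square statistic of all pairs, 47.1, and the lowest weight in the RNA fit, 0.32. Its values chose the members and are the baseline of each RNA change against unstressed cells. Footprint values of library 1 over library 2 ran from 0.757 to 1.18 over the members, with a median of 1.00. RNA values of library 1 over library 2 ran from 0.444 to 1.47, with a median of 1.11. The ratio itself differed between the libraries of the same number by 1.16-fold in the median member and by 2.30-fold in the most variable one. The same rule on the libraries numbered 1 alone chose 178 of the 200 members, and on those numbered 2 alone it chose 183. These separate choices had 163 transcripts in common.

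The members were short in coding sequence and long outside it. Coding and transcript lengths were solved from the deposited values. The median coding length was 174 codons in the members (51 to 1217) and 381 codons in the comparison group. Of the 121 eligible transcripts of up to 100 codons, 35 were members (28.9%), and of the 775 with over 100 and up to 200 codons, 79 were (10.2%). The share was 3.91% of 1638 transcripts with over 200 and up to 400 codons, 1.30% of 1535 with over 400 and up to 800, and 0.390% of 513 with over 800 and up to 1600. None of the 73 transcripts with longer coding sequences was a member.

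Sequence outside the coding part, both untranslated regions together, had a median of 2092 nt in the members and 1002 nt in the comparison group. Of the 234 eligible transcripts with over 4000 nt of it, 41 were members (17.5%), and of the 1124 with up to 500 nt, 18 were (1.60%). The median ratio of transcript to coding length was 5.10 in the members and 1.87 in the comparison group. This ratio enters the rule itself, because footprints were divided by the coding length and RNA by the transcript length. Before any division by length, the members had a median of 0.324 footprint reads per RNA fragment, against 0.161 in the comparison group. When eligible transcripts were ranked by reads per fragment alone, 65 of the 200 members were among the highest 200. The lengths of the members are thus partly fixed by how efficiency was calculated, and no test was made of them.

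Across the conditions the median level of the members moved little, and the spread among them widened under the strongest stress. Levels were scaled so that the typical transcript listed in all 18 libraries of an assay, and averaging at least 10, had the same level in each. Transcripts unlisted in any library of the assay did not enter the scaling. They are therefore relative levels, and a gain or loss of ribosomes shared by all transcripts would not show in them. The median footprint level of the members was 187 and 193 scaled RPKM in the 2 unstressed libraries, 179 and 182 under mild stress, and 199 and 193 under intermediate stress. It was 204 and 196 under brief severe stress, and 211 and 219 under prolonged severe stress. In the 8 recovery libraries it was between 183 and 192. The middle 50% of the members spanned 86.2 to 338 scaled RPKM in the first unstressed library and 55.5 to 708 in the first library of brief severe stress, and the highest member had 797 and 3929 in these libraries. A wide spread was not particular to the members. The log2 footprint change from unstressed cells to brief severe stress had an SD of 2.15 in them. In all 8849 transcripts averaging at least 2 scaled RPKM it was 2.02.

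The comparison group had lower footprint levels under stress. Its median was 53.2 and 53.6 scaled RPKM in the unstressed libraries, 40.1 and 40.3 under intermediate stress, 34.5 and 34.9 under brief severe stress, and 36.2 and 36.4 under prolonged severe stress. It was 49.6 to 53.9 in the recovery libraries. The 2 libraries of a condition lay close together in both groups of transcripts.

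Median RNA levels of the members were highest under brief severe stress. They were 17.8 and 17.4 scaled FPKM in unstressed cells, 16.4 and 16.5 under mild stress, 18.01 and 18.05 under intermediate stress, 21.6 and 21.7 under brief severe stress, and 19.0 and 18.5 under prolonged severe stress. In the comparison group they stayed between 28.4 and 31.0 in all 18 libraries.

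A measure that needs no scaling is the share of all reads that fell on the members. Their share of footprint reads was 2.91% and 2.92% in the unstressed libraries, 3.24% and 3.25% under mild stress, 3.62% and 3.66% under intermediate stress, 3.02% and 3.02% under brief severe stress, and 3.67% and 3.66% under prolonged severe stress. In recovery it was 2.84% to 2.97%. Their share of RNA fragments was 1.49% and 1.35% in unstressed cells, 1.63% and 1.61% under brief severe stress, and 1.38% and 1.32% under prolonged severe stress.

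**Figure D2:**
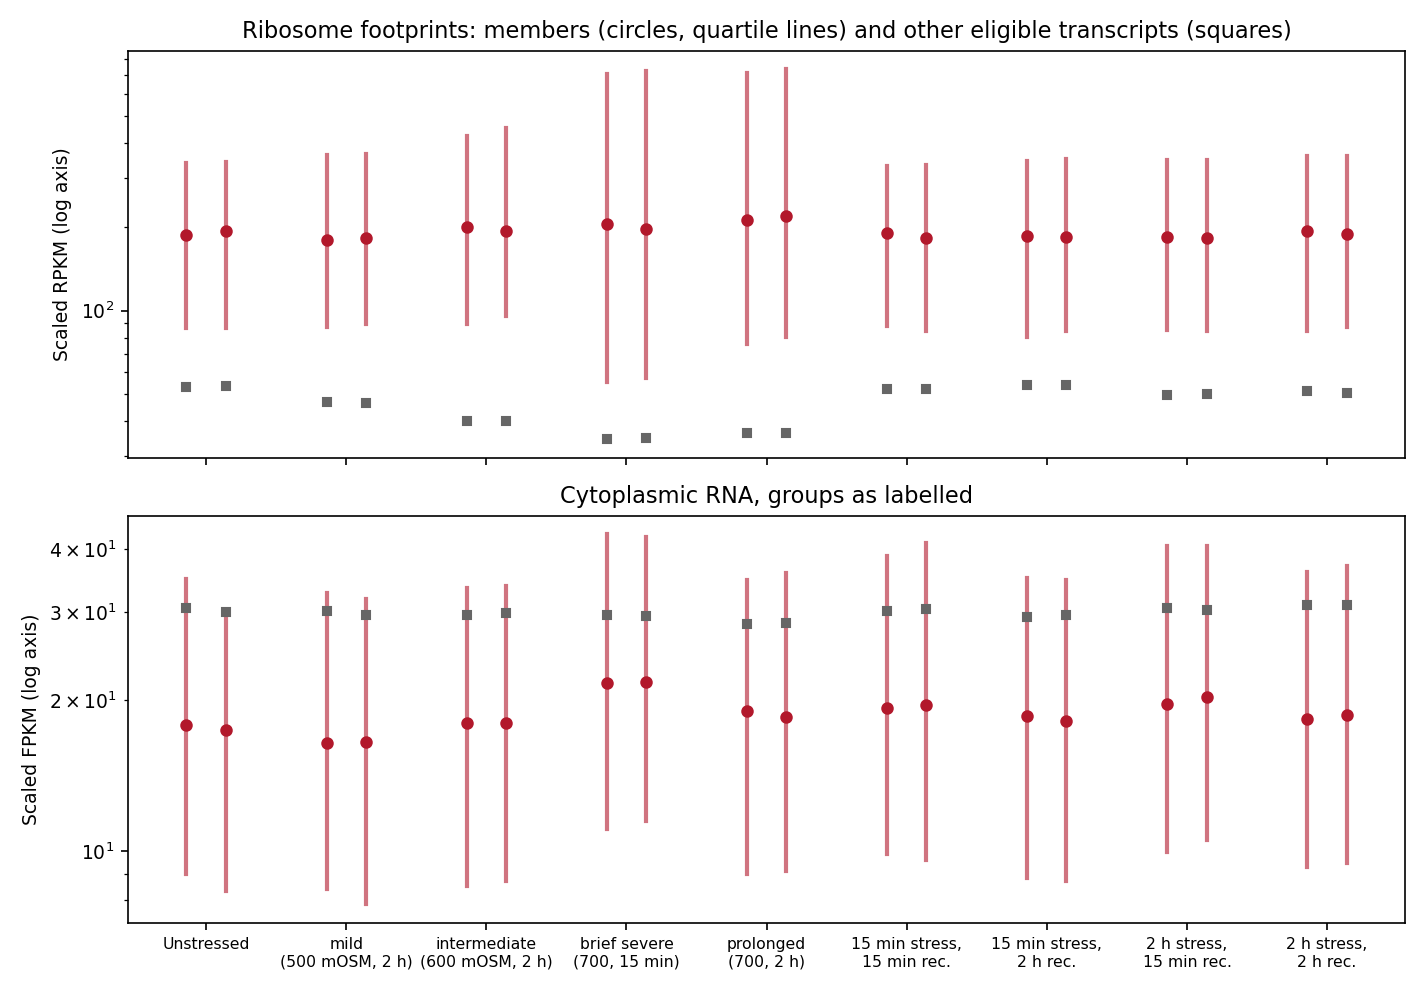
Median level of the members (red circles) with lines from the first to the third quartile, and median of the other eligible transcripts (grey squares), in each of the 36 libraries on log axes; the upper panel gives footprints in scaled RPKM and the lower panel RNA in scaled FPKM, and the RNA groups follow the labels. The members' quartile lines for footprints are longest under severe stress, where they reach from 55.5 to 708 in 1 library, while the squares drop from 53.2 to 34.5.

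The members' median efficiency stayed above that of the comparison group in the 8 conditions other than the unstressed one, where the rule itself set the difference. The rule also reaches into these 8. Footprints were divided by coding length and RNA by transcript length in every condition. The part of the difference that comes from the lengths was therefore carried into all of them. On the log2 scale their median efficiency was 3.03 in unstressed cells, 3.27 under mild stress, 3.43 under intermediate stress, 3.20 under brief severe stress and 3.60 under prolonged severe stress. The comparison group had 0.94, 0.85, 0.55, 0.17 and 0.30 in the same order. In the 4 recovery conditions, as labelled, the members had 2.87 to 3.13 and the comparison group 0.83 to 0.94. The first quartile of the members was lowest under brief severe stress, at 1.87. That of the comparison group was lowest there too, at -1.39.

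The order of transcripts changed most under severe stress. The rule applied to the libraries of another condition chose 148 of the 200 members under mild stress, 120 under intermediate stress, 84 under brief severe stress and 87 under prolonged severe stress. It chose 160 on release from brief severe stress and 148 on release from prolonged severe stress. The minimums and the removal of the 200 highest footprint levels were applied anew in each condition. That left 2870 eligible transcripts under brief and 2961 under prolonged severe stress. Among the 4655 transcripts eligible in unstressed cells, 96 and 98 members were in the 200 of highest efficiency under these 2 stresses. Under brief severe stress, 23 members ranked in the lower 50% of eligible transcripts by efficiency, and under prolonged severe stress 11 did. Since the members were chosen on unstressed values, some loss of rank in any other library follows from the choice. Some keeping of rank follows from the lengths, which enter efficiency in the same way in every condition.

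**Figure D3:**
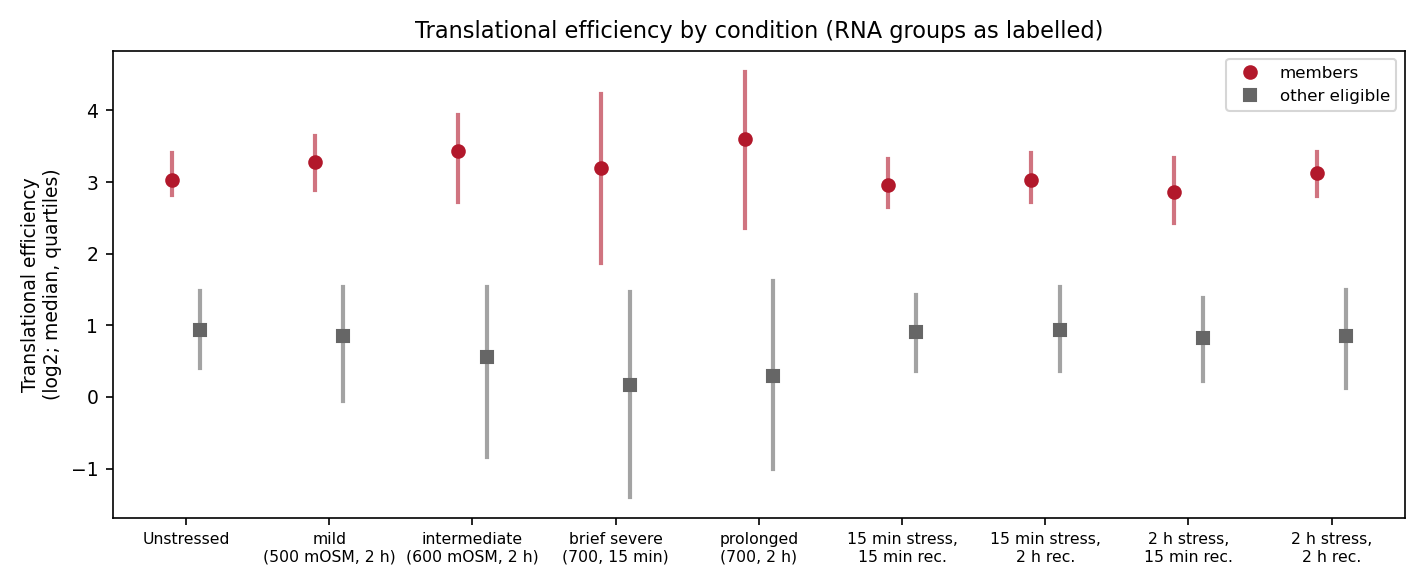
Translational efficiency on the log2 scale (scaled footprint level over scaled RNA level, each plus 1) for the members (red circles) and the other eligible transcripts (grey squares) in the 9 conditions, with medians and lines from the first to the third quartile; RNA groups follow the labels. The members' medians lie between 2.87 and 3.60 and the others' between 0.17 and 0.94, and the members' line reaches lowest, to 1.87, under brief severe stress.

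Against unstressed cells, the median footprint change of the members grew with the strength of the stress, relative to the median of all 8849 transcripts kept. These changes share the values that chose the members, so that they are a description and nothing is read from the shares of all transcripts given with them. The median change was 0.13 on the log2 scale under mild stress (all transcripts -0.13), 0.32 under intermediate stress (-0.41), 0.35 under brief severe stress (-0.92) and 0.63 under prolonged severe stress (-0.91). The scaling sets where 0 lies: it moved all footprint changes up by 0.56 under brief severe stress and by 0.47 under prolonged severe stress. On the values as deposited the members' median under brief severe stress was -0.20 and that of all transcripts -1.39. Above the median of all transcripts there lay 145 of the 200 members with scaling and 143 as deposited.

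The members moved in both directions at the strongest stress. Under mild stress, 1 member was at least 2-fold higher in footprints (0.746% of all transcripts were) and 6 were at least 2-fold lower (16.8% of all). Under intermediate stress, 16 were higher (3.74% of all) and 25 lower (35.4% of all). Under brief severe stress, 69 were higher (16.8% of all) and 52 lower (48.9% of all). Under prolonged severe stress, 82 were higher (16.2% of all) and 48 lower (47.8% of all).

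Depth limits the lowest of these values. Under brief severe stress a member had a median of 137 footprint reads over both libraries, with 0 to 2018, against 1526 in unstressed cells. There 15 members were unlisted in library 1 and 7 in library 2, and under prolonged severe stress 8 and 5 were. The lists start at about 5 reads, so unlisted means too few reads for listing. All 200 members were listed in the other 14 footprint libraries.

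After recovery the footprint levels of most members were near the unstressed ones. The median change against unstressed cells was -0.02 on release from brief severe stress, -0.01 when that recovery lasted 2 h, -0.06 for 15 min of recovery from prolonged severe stress, and -0.00066 on release from it. At least 2-fold higher were 0, 1, 2 and 2 members in that order (0.644%, 0.689%, 1.79% and 3.89% of all transcripts). At least 2-fold lower were 1, 2, 6 and 3 members (0.633%, 0.271%, 5.51% and 7.21% of all).

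Comparisons that leave out the unstressed cells use none of the values that chose the members. From mild to intermediate stress the members' median footprint change was 0.18, and that of all transcripts -0.25. Of the members 3 were at least 2-fold higher (1.34% of all transcripts) and 19 lower (19.6% of all). The largest increase, of 2.56, was in the member ranked 39 with 476 codons, which had 73.0 and 72.9 scaled RPKM under mild stress and 423 and 449 under intermediate stress. The next increase was 1.06, in the member ranked 37 with 60 codons.

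From intermediate to prolonged severe stress the median footprint change of the members was 0.22, against -0.08 for all transcripts. On the values as deposited both medians were lower, at -0.37 and -0.61, and the members stayed above all transcripts. At least 2-fold higher were 53 members (15% of all transcripts) and lower were 30 (22.9% of all). With unlisted values of the members set to 5 reads, 54 were higher and 22 lower. The shares of all transcripts keep unlisted values at 0. The member ranked 39 turned down, from 423 and 449 scaled RPKM under intermediate stress to 119 and 127 under prolonged severe stress. The member ranked 37 went further up, from 755 and 750 to 3254 and 2971. Among members with at least 100 reads the highest increase was 2.13, at rank 151 with 93 codons, and the lowest change was -3.03, at rank 49 with 176 codons. No difference between members and other transcripts was tested, since each footprint condition counts as 1 sample.

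From brief to prolonged severe stress the members' median footprint change was 0.30, against 0.08 for all transcripts. At least 2-fold higher were 30 (22% of all transcripts) and lower 11 (16.2% of all). With unlisted values of the members set to 5 reads these counts were 21 and 7. The shares of all transcripts keep unlisted values at 0. Between the 2 libraries of brief severe stress, 9 members and 1125 of all transcripts kept differed at least 2-fold. For prolonged severe stress, 10 members and 1254 of all did. The lowest change among well-read members was -1.63, at rank 72, which has the longest coding sequence of all members with 1217 codons and went from 138 and 137 to 45.6 and 41.7 scaled RPKM.

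Release from severe stress moved the members against the median of all transcripts. On release from brief severe stress their median footprint change was -0.44, and that of all transcripts 0.89. At least 2-fold lower were 73 members (17.1% of all transcripts) and higher were 52 (48.3% of all). As deposited the medians were 0.14 and 1.37, so the sign of the members' median depends on the scaling, while 146 of 200 lay below the median of all with scaling and 144 without. On release from prolonged severe stress the members' median was -0.60, and that of all transcripts 0.69. At least 2-fold lower were 77 members (14.7% of all) and higher were 50 (43.1% of all).

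The members that gained footprints with stronger stress were mostly short, and the longer ones mostly lost them. From intermediate to prolonged severe stress, the median footprint change was 0.99 in the 35 members of up to 100 codons, 0.58 in the 79 with over 100 and up to 200, -0.26 in the 64 with over 200 and up to 400, and -0.56 in the 22 with more. In the comparison group the medians were 0.65, 0.23, -0.06 and -0.12 in the same order. From mild to intermediate stress the members had 0.39, 0.30, -0.05 and -0.20. On release from prolonged severe stress the order turned round, with -1.36, -1.10, 0.35 and 1.36. The prolonged severe stress libraries enter this comparison and that from intermediate to prolonged severe stress with opposite signs. A turned order follows in part from that.

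Across the 200 members, Spearman's rho between coding length and footprint change was -0.46 from mild to intermediate stress, -0.43 from intermediate to prolonged severe stress, 0.40 on release from brief and 0.48 on release from prolonged severe stress. From brief to prolonged severe stress it was -0.05. For these 5 comparisons, in this order, the 4455 other eligible transcripts had rho of -0.27, -0.06, -0.05, 0.16 and -0.23. These values describe transcripts of the same libraries, which also share their depth: short members carry fewer reads for the same level. Comparisons that share a condition are not independent of each other.

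**Figure D4:**
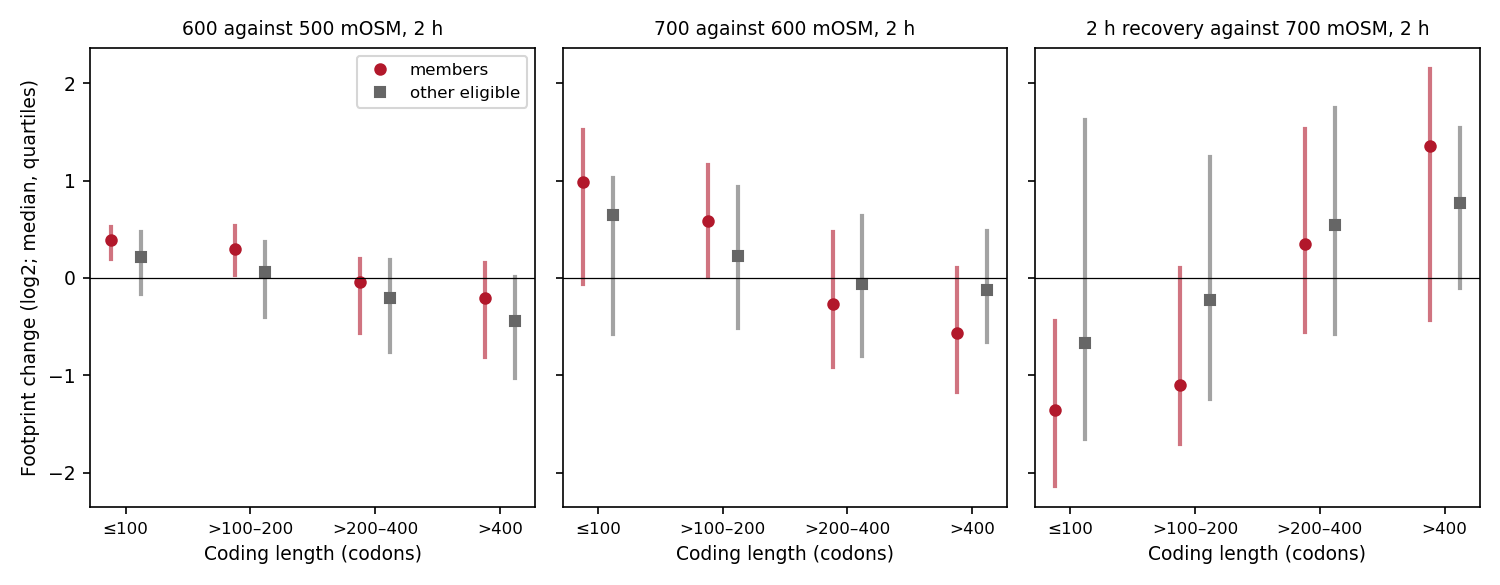
Median footprint change on the log2 scale with lines from the first to the third quartile, by coding length in codons, for the members (red circles) and other eligible transcripts (grey squares) in 3 comparisons without unstressed cells. Members of up to 100 codons lie at 0.39, 0.99 and -1.36 from left to right, and members of over 400 codons at -0.20, -0.56 and 1.36.

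RNA was tested in 4 comparisons without unstressed cells, with limma over all 18 RNA libraries and Benjamini-Hochberg adjustment at 0.05 over all 9275 transcripts kept, among them all 200 members. The p-values measure the spread between the deposited libraries, which may be technical. "Rose" and "fell" below are used of RNA past this threshold.

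From intermediate to prolonged severe stress, 62 members rose in RNA (17.5% of all transcripts did) and 39 fell (33% of all). On the values as deposited 38 rose and 47 fell, so which direction was the more frequent depends on the scaling. The median change was 0.08 for the members and -0.09 for all transcripts with scaling, and 0.00067 and -0.16 as deposited. Without the first library of prolonged severe stress, 39 members rose and 30 fell. Of the members of up to 100 codons 17 of 35 rose and 3 fell, and of those with over 100 and up to 200 codons 32 of 79 rose and 6 fell. Of the 64 members with over 200 and up to 400 codons 9 rose and 22 fell, and of the 22 longer ones 4 rose and 8 fell. Calls by coding length, here and in the comparisons below, are given for the members only. As a description, the members' median RNA change under prolonged severe stress against unstressed cells was 0.31, 0.22, -0.10 and -0.14 from the shortest to the longest. The comparison group had 0.30, 0.19, 0.07 and -0.12 in the same order.

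From brief to prolonged severe stress, 10 members rose in RNA (22.4% of all transcripts) and 104 fell (28.6% of all). Without the second library of prolonged severe stress, the shallowest RNA library, 4 rose and 63 fell. The falls came from all coding lengths, with 17 of 35, 37 of 79, 38 of 64 and 12 of 22 from the shortest to the longest. The median RNA change was -0.26 in the members and -0.02 in all transcripts.

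On release from brief severe stress, 25 members rose in RNA (40.9% of all transcripts) and 124 fell (27.3% of all). The median change was -0.23 in the members and 0.07 in all transcripts. Of the 35 shortest members 30 fell and 2 rose, and of the 79 with over 100 and up to 200 codons 61 fell and 3 rose. Of the 22 members with over 400 codons 3 fell and 6 rose.

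On release from prolonged severe stress, 50 members rose in RNA (42.1% of all transcripts) and 80 fell (24.1% of all). The median change was -0.12 in the members and 0.12 in all transcripts. Falls again were most frequent among members of up to 200 codons, with 16 of 35 and 41 of 79. Rises were most frequent in the 22 members with over 400 codons, with 11.

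**Figure D5:**
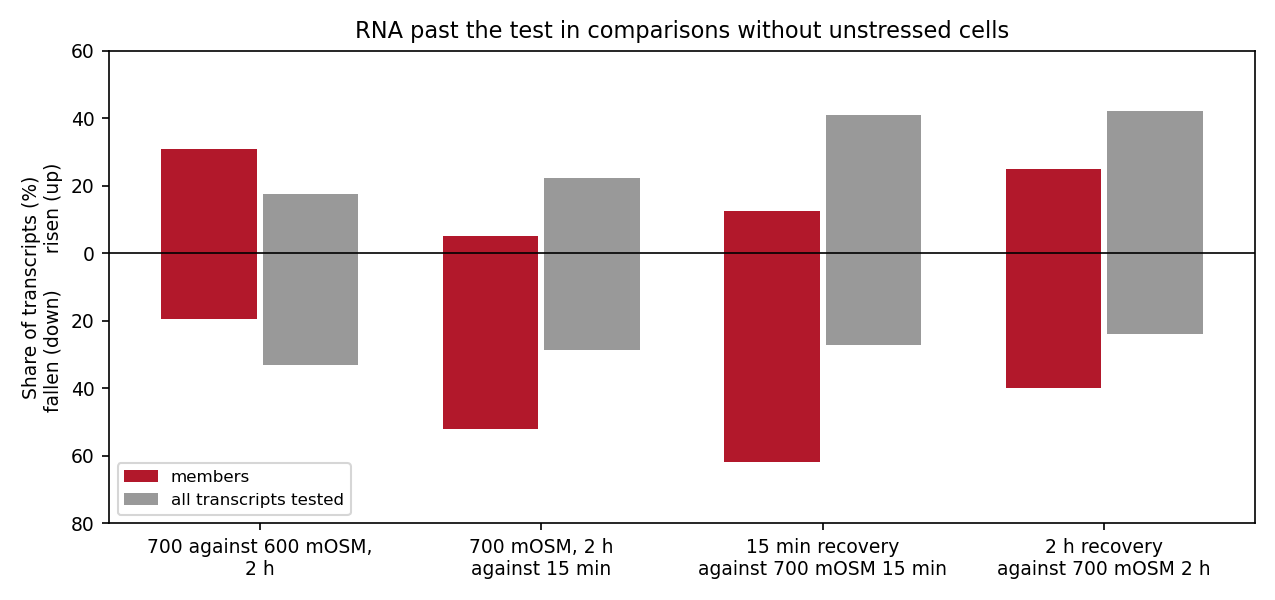
Share of transcripts whose RNA rose (bars up) or fell (bars down) past an adjusted p of 0.05 in limma, in percent, for the 200 members (red) and all 9275 transcripts tested (grey) in 4 comparisons. From brief to prolonged severe stress and in both releases the members' downward bars exceed the grey ones, at 52%, 62% and 40% of members against 28.6%, 27.3% and 24.1% of all transcripts; from intermediate to prolonged severe stress more members rose than fell with the scaling used, and more fell than rose on the values as deposited.

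In 3 of these 4 comparisons RNA and footprints of a member went mostly the same way. From intermediate to prolonged severe stress, 57 of the 62 members whose RNA rose had a footprint change above 0, with a median of 1.12, and 36 of the 39 whose RNA fell had one below 0, with a median of -0.91. The 99 members without an RNA call had a median footprint change of 0.13. These counts depend on the scaling. As deposited 38 members rose and 47 fell in RNA there, and the median footprint change of all members was -0.37 in place of 0.22. On release from brief severe stress the median footprint change was 2.48 where RNA rose and -0.97 where it fell. The corresponding medians were 1.13 and -1.43 on release from prolonged severe stress. Spearman's rho between the footprint and RNA changes over the 200 members was 0.69, 0.59 and 0.64 in these 3 comparisons. Over the 4455 other eligible transcripts it was 0.35, 0.52 and 0.51. From brief to prolonged severe stress rho was 0.09 in the members and 0.23 in the others, and the 104 members whose RNA fell had a median footprint change of 0.24.

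Fewer members changed 2-fold in RNA than in footprints. At least 2-fold higher in RNA from intermediate to prolonged severe stress was 1 member (0.248% of all transcripts) and lower was 1 (0.927% of all). Among the members 5 were higher on release from prolonged severe stress (9.42% of all) and 1 was lower (0.173% of all).

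The change in efficiency is the footprint change minus the RNA change. From intermediate to prolonged severe stress it had a median of 0.20 in the members and -0.01 in all 8446 transcripts kept in both assays. In efficiency 28 members were at least 2-fold higher (14.6% of all transcripts) and 22 lower (18.5% of all). From brief to prolonged severe stress the median was 0.49 in the members and 0.21 in all transcripts, with 43 members higher (22.1% of all) and 11 lower (14.7% of all). On release from brief severe stress it was -0.26 in the members and 0.80 in all transcripts, with 51 members higher (46.6% of all) and 52 lower (15.5% of all). On release from prolonged severe stress it was -0.43 and 0.42, with 41 members higher (36.1% of all) and 65 lower (14.2% of all). Efficiency changes carry the same shift from the scaling of footprints as the footprint changes do.

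Against unstressed cells, which is a description only, RNA of the members was highest under brief severe stress. The median RNA change there was 0.35 in the members and -0.06 in all transcripts, and 161 of 200 members were above 0. At least 2-fold higher were 5 members (0.571% of all transcripts) and lower were 0 (1.93% of all). Under mild stress the median change was -0.06, under intermediate stress 0.01, and under prolonged severe stress 0.12.

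The largest RNA rise and fall among the members in the first and the last of these comparisons are given by identifier. ENSMUST00000108817, ranked 42 with 131 codons in a transcript of 2146 nt, had the largest rise from intermediate to prolonged severe stress. Its RNA was 15.6 and 20.0 scaled FPKM under intermediate stress, 17.8 ± 3.15 (SD, n = 2), and 40.1 and 38.7 under prolonged severe stress, 39.4 ± 0.972 (SD, n = 2). The change was 1.11 on the log2 scale (SE 0.13, adjusted p = 4.42e-06 in limma). Its footprints were 345 and 352 scaled RPKM under intermediate stress and 787 and 729 under prolonged severe stress.

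The same transcript was low under mild stress, with 12.7 and 15.4 scaled FPKM of RNA and 214 and 201 scaled RPKM of footprints, and in unstressed cells its RNA was 35.4 and 43.2, so that its RNA levels under prolonged severe stress lay within the unstressed range. Its footprints were highest under brief severe stress, at 1467 and 1391 scaled RPKM, against 508 and 468 in unstressed cells.

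ENSMUST00000028238, ranked 192 with 216 codons in a transcript of 3081 nt, had the largest fall from intermediate to prolonged severe stress. Its RNA was 32.6 and 32.4 scaled FPKM under intermediate stress, 32.5 ± 0.185 (SD, n = 2), and 14.5 and 16.8 under prolonged severe stress, 15.7 ± 1.62 (SD, n = 2). It fell by 1.01 on the log2 scale (SE 0.08, adjusted p = 9.46e-08 in limma). Its footprints were 279 and 279 scaled RPKM in unstressed cells, 199 and 212 under intermediate stress, and 21.2 and 34.8 under prolonged severe stress. Under brief severe stress it was unlisted in library 1 and had 21.5 in library 2. Its footprints were back at 203 and 193 and its RNA at 38.5 and 39.0 on release from prolonged severe stress.

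ENSMUST00000164773, ranked 50 with 406 codons in a transcript of 1949 nt, had the largest rise on release from prolonged severe stress. Its RNA was 6.23 and 6.67 scaled FPKM under prolonged severe stress, 6.45 ± 0.309 (SD, n = 2), and 36.5 and 39.6 after 2 h of recovery, 38.1 ± 2.15 (SD, n = 2). The change was 2.39 on the log2 scale (SE 0.12, adjusted p = 1.05e-10 in limma). Its footprints were 50.8 and 39.4 scaled RPKM under prolonged severe stress and 365 and 370 after recovery. Both levels exceeded those of unstressed cells, which were 7.01 and 10.4 for RNA and 106 and 97.4 for footprints.

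ENSMUST00000033597, ranked 63 with 407 codons in a transcript of 1934 nt, had the largest fall on release from prolonged severe stress. Its RNA was 12.8 and 12.7 scaled FPKM under prolonged severe stress, 12.8 ± 0.0642 (SD, n = 2), and 5.93 and 5.74 after 2 h of recovery, 5.83 ± 0.134 (SD, n = 2). It fell by 1.01 on the log2 scale (SE 0.09, adjusted p = 6.57e-08 in limma). Its footprints were 134 and 155 scaled RPKM under prolonged severe stress and 67.0 and 69.3 after recovery. In unstressed cells they were 78.7 and 77.4.

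Footprints of members with at least 100 reads gave still larger changes on release. The member ranked 37 with 60 codons went from 3254 and 2971 scaled RPKM under prolonged severe stress to 349 and 348 after 2 h of recovery. The member ranked 183 with 112 codons had the highest footprint level of all members under brief severe stress, 3929 and 3810, and had 579 and 595 after 15 min of recovery. In the other direction, the member ranked 55 with 222 codons and 8301 nt outside the coding sequence was unlisted in both libraries under brief and under prolonged severe stress. It had 75.3 and 80.6 scaled RPKM on release from the former and 57.3 and 59.7 on release from the latter.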

How the data were processed

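The authors deposited 1 list per library of transcript identifiers and values, which the file names give as RPKM for footprints and FPKM for RNA. Per the submitters' processing notes the tools were Cutadapt, Bowtie and STAR with the build GRCm38; their roles and versions, the annotation and the counting method are not stated there. Per the labels' protocols, footprints of 28 to 30 nt were isolated after RNase I digestion. Length and library total behind each deposited RPKM or FPKM value were solved for, which gave whole reads within a relative tolerance of 1e-09 for 100% of values. For footprints this was tested on simulated data, with lengths that were all multiples of 3. The reads of at least 99.76% of the transcripts in a library were recovered there. Coding lengths were multiples of 3 for 99.8% of the transcripts.

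Unlisted transcripts were set to 0. Libraries were scaled within each assay by the median-of-ratios method, using transcripts listed in all 18 and averaging at least 10 (4619 for footprints, 5705 for RNA). Changes were taken on the scale log2(scaled value + 1), on which low transcripts appear to change less than they did, for transcripts whose scaled values averaged at least 2 (8849 for footprints, 9275 for RNA). The RNA comparisons were two-sided tests in limma 3.58.1 (R 4.3.3), from 1 fit of 9 group means with a precision weight per group and a mean-variance trend, tested on simulated data. Molecular identifiers are not mentioned in the labels, and read numbers speak to counting error alone. The members, lists and comparisons were chosen with earlier results of these data known. The fixed gene lists were not applied and gene names are not reported, because no table used here pairs the identifiers with genes. The identifiers printed are the member with the largest RNA rise and the one with the largest fall in 2 of the 4 tested comparisons, and these 2 comparisons were chosen after their values were seen. Other members named by rank are those at the ends of the ranking or with the highest or lowest footprint change among members with at least 100 reads.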

Additional observations from a re-analysis of the deposited data

How the results depend on the processing

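Counts of RNA calls are counts of the 200 members. On the values as deposited 38 rose from intermediate to prolonged severe stress, in place of 62. With voom on the recovered reads 16 rose from brief to prolonged severe stress, in place of 10, and the risen and fallen were 87 and 33 from intermediate to prolonged severe stress and 38 and 103 on release from prolonged severe stress. Leaving out 1 library gave 39 to 47 risen and 26 to 36 fallen from intermediate to prolonged severe stress, 4 to 10 and 63 to 103 from brief to prolonged severe stress, 23 to 26 and 106 to 117 on release from brief severe stress, and 36 to 45 and 61 to 75 on release from prolonged severe stress. Where that left a group with 1 library, its spread was taken from the other groups, with the weight that the group had in the full fit. That weight had been estimated with the omitted library included. The replicate numbers did not pair the RNA libraries, since deviations of same-numbered libraries correlated by -0.31 to 0.31 and by over 0.1 in 6 of 36 pairs of conditions. With the replicate number as a block the risen and fallen were 62 and 38, 10 and 106, 25 and 122, and 49 and 80. A pseudocount of 0.25, equal weights, no filter on low values and a fit of the 2 groups alone kept all counts within 1.5 times.

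Median footprint changes of the members are on the log2 scale. On the values as deposited they were 0.22 under mild, 0.44 under intermediate, -0.20 under brief severe and 0.16 under prolonged severe stress and -0.027 on release from the last, all against unstressed cells. As deposited they were -0.37 from intermediate to prolonged severe stress, 0.39 from brief to prolonged severe stress, 0.14 on release from brief severe stress and -0.15 on release from prolonged severe stress. Members chosen on libraries 1 and compared with unstressed library 2 had 0.093, 0.25, 0.32, 0.55 and -0.032 under mild, intermediate, brief severe and prolonged severe stress and on release from the last. With the libraries exchanged they had 0.17, 0.36, 0.47, 0.69 and 0.019. Since the 2 footprint libraries count as 1 sample, this does not free the changes from the values that chose the members. Leaving out 1 library of each condition gave 0.12 to 0.14 under mild stress, 0.31 in both cases under intermediate stress, 0.31 to 0.41 under brief and 0.59 to 0.65 under prolonged severe stress, -0.029 to -0.014 on release from the last, 0.27 to 0.33 from intermediate to prolonged severe stress, 0.26 to 0.29 from brief to prolonged severe stress, -0.45 to -0.40 on release from brief severe stress and -0.61 to -0.51 on release from prolonged severe stress. The median on release from prolonged severe stress against unstressed cells changed sign among these settings and stayed near 0 in each. The rule shared 65 members with a ranking on reads per fragment, an alternative chosen after seeing the data, 143 with a minimum of 10 FPKM and 165 with the highest 200 footprint levels kept in. Under severe stress, 15 members at most were unlisted in a library, and since these were set to 0, their falls into severe stress and their rises out of it are upper limits.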
